A study of Mus musculus with 32 samples.

Results

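The expression of 7 red blood cell genes (Hba-a1, Hbb-b1, Hbb-bh1, Ahsp, Alas2, Slc4a1 and Klf1) was examined in whole lungs of 32 newborn mice. The members were the probes carrying one of these gene names, 1 probe per gene, which is 7 of 35715 gene names and 7 of 55681 mouse probes on the array, in all 8 groups and in each mouse. Wild-type C57Bl/6J pups were exposed to 21% O2 (normoxia) or 85% O2 (hyperoxia, an experimental model of bronchopulmonary dysplasia) and received either scrambled antimiR as control or antimiR-34a, an oligonucleotide directed against miR-34a and named antagomiR-34a in the labels. Lungs were studied at postnatal day (P)5 or P14, with 4 mice in each group and 1 array per mouse. The protocol in the labels gives these ages as P5.5 and P14.5. The 8 groups were thus P5 or P14, in 21% or 85% O2, with scrambled antimiR or antimiR-34a. The vessels were flushed with saline through the heart until the lungs were white, and the blood left in each lung was not measured in the data used here. Per the labels, pups of the P5 groups were euthanized with pentobarbital and those of the P14 groups with isoflurane, whereas the methods of the study name pentobarbital for both ages. If the labels are right, this step cannot be told apart from age.

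Each oxygen level at each age lay on an array slide of its own (4 slides of 8 arrays), so differences between oxygen levels or ages cannot be told apart from differences between slides, whereas both antimiRs were present on every slide. On each slide scrambled arrays lay in array row 1 and antimiR-34a arrays in row 2. Differences between the antimiRs therefore cannot be told apart from differences between rows. Between 33606 and 40774 probes per array were well above background. The P14 normoxia slide stood highest, with 39007 to 40774, against 34603 to 36473 on the P14 hyperoxia slide and 33606 to 38716 at P5. The part of this in differences of dim probes such as Hbb-bh1 was not tested. All 8 lung epithelial and all 8 endothelial marker genes were measurable in both ages. In 1 array, P5 normoxia with scrambled antimiR replicate 4, the mean level of 8 skeletal muscle genes was 5.22 against a group median of 0.36 (log2 relative to the mean of all arrays). The signal scale (75th percentile of log2 signal) was 9.34 for P14 normoxia with scrambled antimiR replicate 4, 10.20 for P14 normoxia with antimiR-34a replicate 1 and 9.20 for P5 hyperoxia with antimiR-34a replicate 3, each apart from the other 3 arrays of its group.

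Red blood cells develop from nucleated erythroblasts, which fill with hemoglobin, lose their nucleus and enter the blood as reticulocytes that still carry mRNA for a short time before they become RNA-poor erythrocytes. Hemoglobin is built from alpha-like and beta-like globin chains and iron-bearing heme, and its genes are switched on together by erythroid transcription factors such as GATA1 and KLF1. In a newborn mouse the spleen, the liver and the bone marrow make red cells, and the lung receives them through its capillaries.

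The array probes of 3 members are shown because the name on the array decides which transcript was read. Per the file headers, positions are in mouse build mm9. The Hbb-b1 probe lies at chr7:110976379-110976438 on the minus strand. Its first 30 of 60 bases are printed over the matching bases of the transcripts of Hbb-bs and Hbb-bt, the adult beta-globin genes that RefSeq lists for the C57BL/6J genome (build GRCm38.p6, chr7:103827895-103827924 and chr7:103813889-103813918, both minus strand). Capitals mark bases that differ from the probe.
Hbb-b1 probe, first 30 bases: tttgcttctgacatagttgtgttgactcac
Hbb-bs transcript start: tttgcttctgacatagttgtgttgactcac
Hbb-bt transcript start: tttgcttctgaTTCTgttgtgttgactTGc
Hba-a1 probe, chr11:32183955-32184014, plus strand: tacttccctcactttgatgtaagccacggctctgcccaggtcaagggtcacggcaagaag
Ahsp probe, with no position in the files: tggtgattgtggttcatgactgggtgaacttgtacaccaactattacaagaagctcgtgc
Over these 30 bases the Hbb-b1 probe had 0 mismatches to Hbb-bs and 6 to Hbb-bt (C12T, A13T, T14C, A15T, C28T and A29G, probe base first, counted from 1 at the 5′ end of the probe). The other probes lie at chr7:110990209-110990268 (Hbb-bh1), chrX:147004993-147005052 (Alas2), chr11:102210256-102210315 (Slc4a1) and chr8:87428881-87428940 (Klf1).

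The 150 bases before the transcript start are shown for the members with a RefSeq promoter entry (3 of 7: Hba-a1, Alas2 and Klf1) and for Hbb-bs, because 3 of these 4 genes are named below as moving together from mouse to mouse. Positions are in GRCm38.p6, each sequence reads 5′ to 3′ on the strand of its gene, and capitals mark matches, on either strand, to CACCC (the letters KLF1 is known to bind), GATAA (bound by erythroid factors such as GATA1), CCAAT (a common promoter box) and TATAA (the box at which general transcription factors assemble).
Hbb-bs, chr7:103827929-103828078, minus strand: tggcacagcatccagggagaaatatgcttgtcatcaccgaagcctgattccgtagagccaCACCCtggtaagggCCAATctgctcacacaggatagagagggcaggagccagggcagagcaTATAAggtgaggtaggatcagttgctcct
Hba-a1, chr11:32283522-32283671, plus strand: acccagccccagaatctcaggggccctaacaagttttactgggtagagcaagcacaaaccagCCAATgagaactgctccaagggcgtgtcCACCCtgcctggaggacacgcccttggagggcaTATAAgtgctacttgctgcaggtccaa
Alas2, chrX:150547267-150547416, plus strand: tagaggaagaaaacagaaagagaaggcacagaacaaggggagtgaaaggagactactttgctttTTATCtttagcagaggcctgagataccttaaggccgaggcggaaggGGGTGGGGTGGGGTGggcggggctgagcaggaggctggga
Klf1, chr8:84901832-84901981, plus strand: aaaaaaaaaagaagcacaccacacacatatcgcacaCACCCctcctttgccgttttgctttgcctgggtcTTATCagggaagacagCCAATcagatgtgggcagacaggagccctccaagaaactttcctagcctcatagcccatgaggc
CACCC matched once in Hbb-bs (first base at -90 from the start), Hba-a1 (-60) and Klf1 (-114), and 3 times in Alas2 (-40, -35 and -30). GATAA matched in Alas2 (-86) and Klf1 (-80), CCAAT in Hbb-bs, Hba-a1 and Klf1, and TATAA in Hbb-bs (-29) and Hba-a1 (-27), with 0 bases shared between matches. Of 32851 promoters in windows of the same length, 37.4% held CACCC, 24.5% CCAAT, 13.3% GATAA, 14.2% TATAA and 3.99% both CACCC and GATAA. These matches are letters in a window, and no binding was measured.

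All levels below are log2 signals relative to the 75th percentile of the same array, listed as replicates 1 to 4, and levels of different genes are not compared because each probe has its own brightness. Of the 7 members, Hba-a1, Hbb-b1, Alas2, Slc4a1 and Ahsp were well above background on 32 of 32 arrays, Hbb-bh1 on 31 and Klf1 on 5. In whole lung, fewer red cells and less RNA per cell cannot be told apart. The share of all probes whose groups did not overlap was not counted, so missing overlap describes the members alone.

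Hba-a1 encodes an alpha-globin chain of adult hemoglobin. At P5 in 21% O2 its levels were 8.52, 8.42, 8.06 and 8.01 with scrambled antimiR and 8.48, 7.48, 8.16 and 8.78 with antimiR-34a. In 85% O2 at P5 they were 8.19, 7.42, 7.92 and 7.90 with scrambled antimiR and 7.81, 7.76, 8.81 and 8.15 with antimiR-34a. All 4 groups at P5 overlapped. At P14 in 21% O2 the levels of Hba-a1 were 8.81, 8.67, 8.68 and 7.78 with scrambled antimiR and 8.32, 9.17, 8.69 and 8.66 with antimiR-34a. In 85% O2 at P14 they were 6.95, 6.80, 7.89 and 8.08 with scrambled antimiR and 8.01, 7.23, 6.80 and 9.31 with antimiR-34a. At P14 the groups overlapped as well, since the fourth normoxia mouse with scrambled antimiR was low and the fourth hyperoxia mouse with antimiR-34a was the highest of the 32 mice. The Hba-a1 probe lay within 1 log2 unit of the brightest probe of its array on 23 of 32 arrays (15 of 16 at P5 and 8 of 16 at P14), whereas Hbb-b1 was at least 2.36 below it on every array. No spot was flagged as saturated, and the effect of this brightness on the differences of Hba-a1 between mice was not tested.

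Hbb-b1 is the array's name for a beta-globin chain of adult hemoglobin. At P5 in 21% O2 it stood at 5.91, 5.72, 5.25 and 5.17 with scrambled antimiR and at 5.73, 4.19, 5.08 and 6.42 with antimiR-34a. In 85% O2 at P5, Hbb-b1 stood at 5.22, 4.17, 4.93 and 5.10 with scrambled antimiR and at 4.51, 4.72, 6.0 and 4.92 with antimiR-34a. The second normoxia mouse with antimiR-34a was low and the fourth was high, as they were for Hba-a1. At P14 in 21% O2, values of Hbb-b1 were 5.51, 5.17, 5.29 and 3.81 with scrambled antimiR and 4.77, 5.66, 5.09 and 5.03 with antimiR-34a. In 85% O2 at P14, they were 2.79, 2.67, 4.09 and 3.95 with scrambled antimiR and 4.09, 3.21, 2.84 and 6.13 with antimiR-34a. In 3 of 4 hyperoxia mice with antimiR-34a, and in replicates 1 and 2 of the hyperoxia mice with scrambled antimiR, Hbb-b1 lay below every normoxia mouse of the same treatment. The range among the 4 hyperoxia mice given antimiR-34a was 9.79-fold.

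Hbb-bh1 is a beta-like globin gene of embryonic red cells. It was dim on these arrays, with levels at P5 in 21% O2 of -3.98, -3.78, -4.48 and -3.97 with scrambled antimiR and of -3.53, -3.90, -3.39 and -3.30 with antimiR-34a. At P5 in 85% O2 its levels were -4.12, -4.45, -4.36 and -4.43 with scrambled antimiR and -4.54, -4.25, -4.08 and -4.33 with antimiR-34a. With antimiR-34a every P5 hyperoxia mouse was below every P5 normoxia mouse, and with scrambled antimiR the groups overlapped. At P14 in 21% O2 the Hbb-bh1 levels were -3.40, -3.84, -3.98 and -3.61 with scrambled antimiR and -3.37, -3.22, -3.32 and -3.12 with antimiR-34a. At P14 in 85% O2 they were -5.72, -5.19, -4.84 and -5.84 with scrambled antimiR, of which 3 were well above background, and -3.83, -4.70, -4.65 and -5.37 with antimiR-34a. At P14 the oxygen groups did not overlap in either treatment.

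Ahsp (alpha hemoglobin stabilizing protein) is a chaperone that binds free alpha-globin in maturing red cells. At P5 in 21% O2 Ahsp was at 2.40, 3.00, 1.89 and 3.04 with scrambled antimiR and at 3.06, 1.66, 3.16 and 3.66 with antimiR-34a. At P5 in 85% O2 Ahsp was at 1.51, 0.37, 1.15 and 1.58 with scrambled antimiR and at 0.73, 1.27, 1.30 and 1.26 with antimiR-34a. At this age every hyperoxia mouse was below every normoxia mouse. At P14 in 21% O2 the chaperone was at 0.37, -0.24, -0.51 and -1.08 with scrambled antimiR and at -0.25, -0.17, -0.68 and -0.67 with antimiR-34a. At P14 in 85% O2 it was at -1.26, -2.50, -1.22 and -1.18 with scrambled antimiR and at -0.80, -2.62, -2.01 and -0.84 with antimiR-34a. Within each treatment the P14 oxygen groups did not overlap, and within each oxygen level and treatment the 2 ages did not overlap. The group means of Ahsp fell into 4 steps, each shared by both antimiRs. They were 2.89 ± 0.86 (SD, n = 4) and 2.58 ± 0.54 for P5 normoxia, 1.14 ± 0.27 and 1.15 ± 0.56 for P5 hyperoxia, -0.44 ± 0.27 and -0.37 ± 0.60 for P14 normoxia, and -1.57 ± 0.90 and -1.54 ± 0.64 for P14 hyperoxia (antimiR-34a first, then scrambled antimiR). Both means on a step differed by less than the spread between mice.

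Alas2 is the first and rate-limiting enzyme of heme synthesis in red cells. Levels of Alas2 at P5 in 21% O2 were 4.60, 4.46, 3.89 and 3.92 with scrambled antimiR and 4.58, 3.09, 3.93 and 5.42 with antimiR-34a. In 85% O2 they were 4.40, 2.80, 3.69 and 3.76 with scrambled antimiR and 3.36, 3.57, 5.63 and 3.93 with antimiR-34a. The P5 groups overlapped throughout. At P14 in 21% O2, Alas2 levels were 4.16, 3.74, 3.95 and 2.22 with scrambled antimiR and 3.22, 4.23, 3.60 and 3.53 with antimiR-34a. At P14 in 85% O2, they were 1.53, 1.60, 3.15 and 3.20 with scrambled antimiR and 3.12, 2.17, 1.68 and 5.13 with antimiR-34a. In 3 of 4 P14 groups (all but hyperoxia with scrambled antimiR) the highest and the lowest mouse were those of Hbb-b1 as well, and the range among P14 hyperoxia mice with antimiR-34a was 10.9-fold.

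Slc4a1 encodes band 3, the chloride and bicarbonate exchanger of the red cell membrane. Its levels at P5 in 21% O2 were 2.73, 3.20, 2.42 and 3.01 with scrambled antimiR and 3.21, 2.17, 3.25 and 3.90 with antimiR-34a. In 85% O2 at P5 they were 2.42, 1.08, 1.77 and 2.04 with scrambled antimiR and 1.43, 1.77, 2.80 and 2.08 with antimiR-34a. The lowest normoxia mouse and the highest hyperoxia mouse with scrambled antimiR had nearly the same level. At P14 in 21% O2 Slc4a1 was at 1.37, 0.59, 0.68 and -0.30 with scrambled antimiR and at 0.34, 0.82, 0.35 and 0.27 with antimiR-34a. At P14 in 85% O2 Slc4a1 was at -0.67, -0.78, 0.61 and 0.81 with scrambled antimiR and at 0.88, -0.37, -0.66 and 1.69 with antimiR-34a. The oxygen groups overlapped at both ages, and P14 mice were below P5 mice of the same oxygen level and treatment in all sets but hyperoxia with antimiR-34a.

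Klf1, the erythroid Krüppel-like transcription factor, was well above background in 3 of 4 mice of the P5 normoxia group with scrambled antimiR, in 1 of 4 each of the P5 normoxia group with antimiR-34a and the P5 hyperoxia group with scrambled antimiR, and in 0 of 20 mice of the remaining groups. It was therefore tested in no comparison. The Klf1 level in P5 normoxia with scrambled antimiR was -6.25, -5.75, -6.0 and -5.05. Over the 12 remaining P5 mice the Klf1 signal ran from -6.79 to -5.15, and over the 16 P14 mice from -8.34 to -6.86, where it was not well above background.

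**Figure D1:**
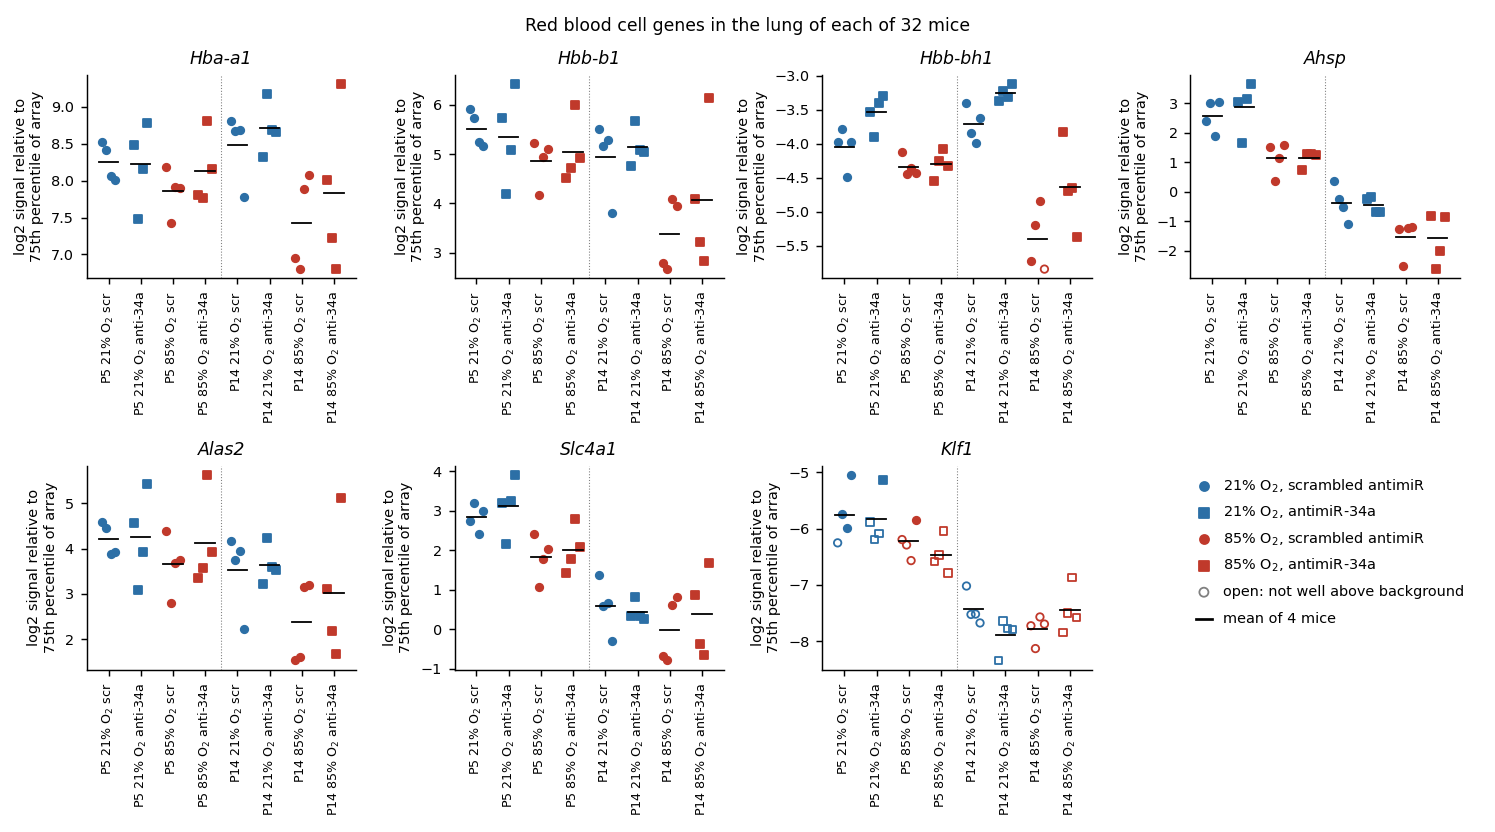
Log2 signal of each of the 7 genes relative to the array's 75th percentile (y axis) in each of 32 mice by group (x axis, 4 mice per group), with blue for 21% O2, red for 85% O2, squares for antimiR-34a, open symbols for spots not well above background and black lines for the mean of 4 mice. Ahsp steps down from P5 normoxia (1.66 to 3.66) to P14 hyperoxia (-2.62 to -0.80), whereas Hba-a1, whose probe was within 1 log2 unit of the brightest on 23 arrays, lies between 6.80 and 9.31.

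The comparison of P14 with P5 asked how red cell transcripts in the lung change over the period in which alveoli form. With scrambled antimiR in 21% O2, Ahsp was 7.72-fold lower at P14 and Slc4a1 4.77-fold lower, whereas neither adult globin passed the test. The log2 fold change of Ahsp was -2.95 ± 0.42 (SE, limma adjusted p = 2.73e-06) and that of Slc4a1 -2.25 ± 0.47 (limma adjusted p = 0.000258), and for both genes the groups did not overlap. These were 2 of the 6 tested members, and 23.5% of all tested probes were called lower in the same comparison, so the count alone does not set the members apart. The other log2 fold changes were 0.24 for Hba-a1 (limma adjusted p = 0.641), -0.57 for Hbb-b1 (0.400), 0.34 for Hbb-bh1 (0.226) and -0.70 for Alas2 (0.365). The sign for Hba-a1 was negative (-0.30) after quantile normalization and in the authors' table. The median over the 6 members was -0.63, against 0.04 over all tested probes.

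With antimiR-34a in 21% O2, Ahsp was 10.1-fold lower at P14 (log2 fold change -3.33 ± 0.42, limma adjusted p = 3.25e-07) and Slc4a1 6.44-fold lower (-2.69 ± 0.47, adjusted p = 2.43e-05). Again 2 of 6 members were called lower, against 28.1% of probes, and Hba-a1, Hbb-b1, Hbb-bh1 and Alas2 had log2 fold changes of 0.48, -0.22, 0.28 and -0.61 with limma adjusted p between 0.306 and 0.750. The sign for Hbb-bh1 was negative after quantile normalization (-0.0019) and in the authors' table (-0.0032). The members' median was -0.41 against 0.02 over all probes. Both normoxia comparisons thus showed the chaperone and the anion exchanger lower at P14 in every mouse, while the globins and the heme synthesis enzyme overlapped between ages.

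In 85% O2 the age comparison with scrambled antimiR called 4 of 6 members lower, against 16.2% of all probes. Ahsp was 6.46-fold lower (log2 fold change -2.69 ± 0.42, limma adjusted p = 1.37e-05) and Slc4a1 3.58-fold lower (-1.84 ± 0.47, adjusted p = 0.00234). Hbb-b1 was 2.79-fold lower (-1.48 ± 0.55, limma adjusted p = 0.0312) and Hbb-bh1 2.08-fold lower (-1.06 ± 0.23, limma adjusted p = 0.000632), with no overlap between ages for any of the 4. Hba-a1 changed by -0.43 (0.409) and Alas2 by -1.29 (limma adjusted p = 0.100), and the median of the 6 was -1.39 against 0.09 over all probes. Without P14 hyperoxia scrambled replicate 2, the Hbb-b1 call was lost (limma adjusted p = 0.0970). By the methods' t-test after Benjamini-Hochberg adjustment, the calls of Hbb-b1 (adjusted p = 0.0640) and Hbb-bh1 (0.0540) were lost.

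With antimiR-34a in 85% O2, Ahsp was 6.52-fold lower at P14 (-2.71 ± 0.42, limma adjusted p = 1.82e-05) and Slc4a1 3.1-fold lower, with overlap between ages for Slc4a1 (log2 fold change -1.63 ± 0.47, limma adjusted p = 0.00743). By the methods' t-test after Benjamini-Hochberg adjustment neither was called (adjusted p = 0.0579 and 0.160), and with the fit restricted to the compared groups the Slc4a1 call was lost (limma adjusted p = 0.0502). These were 2 of 6 members against 16.3% of probes, and the members' median was -1.03 against 0.01. Hbb-b1 (-0.97), Hbb-bh1 (-0.34), Hba-a1 (-0.30) and Alas2 (-1.09) did not pass the test. The value of Hba-a1 changed sign in a fit with 1 array left out. Without the fourth P14 hyperoxia mouse given antimiR-34a, whose adult globin and Alas2 levels were the highest of its group, 4 members were called: Hbb-b1, Alas2, Slc4a1 and Ahsp.

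The comparison of 85% with 21% O2 asked how hyperoxia affects these transcripts at each age. At P5 with scrambled antimiR, Ahsp was 2.70-fold lower in hyperoxia (log2 fold change -1.43 ± 0.39, limma adjusted p = 0.00859, no overlap) and Slc4a1 2.01-fold lower (-1.01 ± 0.37, limma adjusted p = 0.0394). These were 2 of 6 tested members, and 26.4% of all tested probes were called lower, so this count stands close to the background. Hba-a1 (-0.39, limma adjusted p = 0.267), Hbb-b1 (-0.66, 0.224), Hbb-bh1 (-0.29, 0.152) and Alas2 (-0.55, 0.412) did not pass. The members' median was -0.61 against -0.07 over all probes. The Slc4a1 call was lost when any 1 of 6 of the 8 arrays was left out, among them the array with high skeletal muscle genes, and the Ahsp call was kept in each of these fits.

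At P5 with antimiR-34a, Ahsp was 3.36-fold lower in hyperoxia (-1.75 ± 0.39, limma adjusted p = 0.00217, no overlap) and Slc4a1 2.16-fold lower (log2 fold change -1.11 ± 0.37, limma adjusted p = 0.0237). Hbb-bh1 was 1.70-fold lower (-0.77 ± 0.16, limma adjusted p = 0.00118, no overlap). That made 3 of 6 members, against 29.5% of probes called lower, with a median of -0.54 against -0.09. The adult globins and Alas2 did not pass, at -0.09 for Hba-a1, -0.32 for Hbb-b1 (95% interval -1.23 to 0.59) and -0.13 for Alas2. With 1 array left out these ran from -0.34 to 0.09, -0.71 to 0.04 and -0.64 to 0.25. Hbb-b1, for one, was at 0.04 without P5 normoxia antimiR-34a replicate 4 and at -0.64 without P5 hyperoxia antimiR-34a replicate 3, and the sign of Hba-a1 was positive (0.04) after quantile normalization and in the authors' table.

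At P14 with scrambled antimiR, Hbb-bh1 was 3.22-fold lower in hyperoxia (-1.69 ± 0.28, limma adjusted p = 0.000145, no overlap), Ahsp 2.26-fold lower (-1.17 ± 0.42, limma adjusted p = 0.0273, no overlap) and Hbb-b1 2.97-fold lower (-1.57 ± 0.61, limma adjusted p = 0.0388, with overlap). These were 3 of 6 members, against 32.4% of probes called lower. Hba-a1 (-1.06 ± 0.47, limma adjusted p = 0.0626), Alas2 (-1.15 ± 0.67, 0.151) and Slc4a1 (-0.60 ± 0.51, 0.328) did not pass, and the median of the 6 was -1.16 against -0.06. The calls of Hbb-b1 and Ahsp were both lost without P14 hyperoxia scrambled replicate 2 or without P14 normoxia scrambled replicate 1 or 2, and only Hbb-bh1 was then called. The Hbb-bh1 call was lost with another background correction (normexp, log2 fold change -0.36, limma adjusted p = 0.106). With the replicate number as a block the Hbb-b1 call was lost, whereas with array weights all 6 members were called.

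At P14 with antimiR-34a, Hbb-bh1 was 2.60-fold lower in hyperoxia (-1.38 ± 0.28, limma adjusted p = 0.000604) and Ahsp 2.18-fold lower (-1.12 ± 0.42, limma adjusted p = 0.0311), both without overlap. These 2 of 6 members stood against 37.8% of probes called lower, and their list's median was -0.97 against -0.11. Hbb-b1 was at -1.07 (limma adjusted p = 0.138), Hba-a1 at -0.87 (0.113), Alas2 at -0.62 (0.430) and Slc4a1 at -0.06 (0.924). Without P14 hyperoxia antimiR-34a replicate 4 the count was 5 (all but Slc4a1), with Hbb-b1 at -1.76 (limma adjusted p = 0.00502) and Alas2 at -1.32 (0.0487). Without replicate 2 or 3 of the same group, or replicate 1 or 2 of P14 normoxia with antimiR-34a, the Ahsp call was lost and only Hbb-bh1 was called.

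The methods' t-test called neither Slc4a1 nor Hbb-b1 in any of the 4 oxygen comparisons. In the limma fit of all arrays, Ahsp was the one member called lower in hyperoxia in all 4 comparisons, each with 4 of 4 hyperoxia mice below all 4 normoxia mice. Per comparison 26.4% to 37.8% of all tested probes were called lower. The share of probes with all 4 calls was not counted, so this pattern does not set Ahsp apart from other probes. By the methods' t-test after Benjamini-Hochberg adjustment Ahsp was called at P5 with scrambled antimiR (adjusted p = 0.0398) and not in the other 3 (0.0603, 0.0677 and 0.121). At P14 with antimiR-34a the limma call was also lost after quantile normalization (limma adjusted p = 0.0501), in the authors' table (0.0502) and with array weights (0.0549). All 24 log2 fold changes of the 6 members were below 0 in this fit. With antimiR-34a, Hba-a1 at P5 was above 0 after quantile normalization and in the authors' table, and with 1 array left out the values of Hba-a1, Hbb-b1 and Alas2 at P5 and of Slc4a1 at P14 also reached above 0. The 2 comparisons at each age were fitted together, and each has controls of its own.

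**Figure D2:**
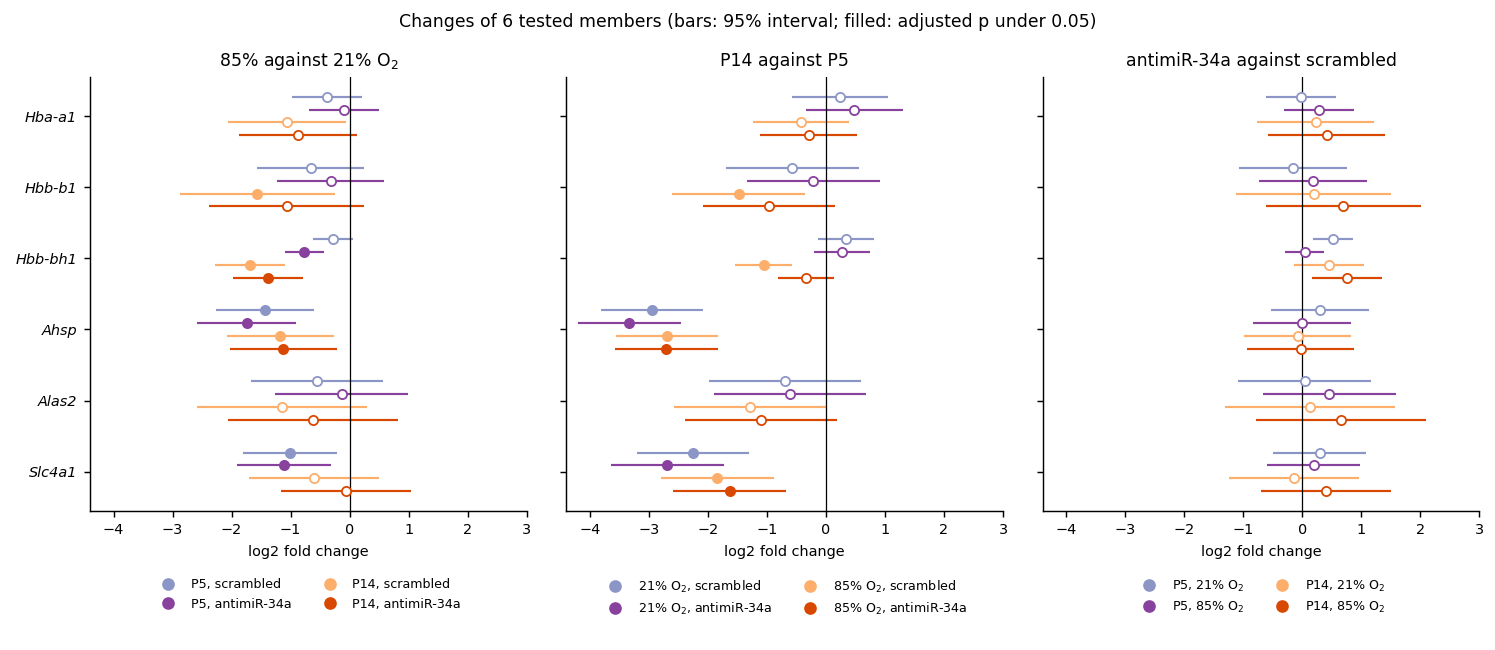
Log2 fold change (x axis) of the 6 tested genes in the oxygen, age and antimiR comparisons, with bars for the 95% confidence interval and filled points for a limma adjusted p under 0.05. Ahsp lies at -1.43, -1.75, -1.17 and -1.12 for oxygen and between -3.33 and -2.69 for age, whereas no antimiR comparison has a filled point.

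The difference of the oxygen effect between P14 and P5 was tested as an interaction. With scrambled antimiR it passed for Hbb-bh1 (-1.40 ± 0.33, limma adjusted p = 0.00143), that is 1 of 6 members, against 17.9% of probes called lower. After normexp background correction the Hbb-bh1 difference was -0.26 (limma adjusted p = 0.375). For the other 5 members no difference passed the test. With antimiR-34a, Hbb-bh1 had -0.61 (limma adjusted p = 0.136) and 0 of 6 members were called in the limma fit, with 0 at an unadjusted p under 0.05, against 43% of probes called in either direction.

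The comparison of antimiR-34a with scrambled antimiR lay within 1 slide for each age and oxygen level, but each antimiR lay in an array row of its own. In these 4 comparisons 0 of 6 members were called by limma or by the methods' t-test, against 0.136%, 0.0639%, 0% and 2.66% of probes called in either direction (P5 normoxia, P5 hyperoxia, P14 normoxia and P14 hyperoxia). For P14 normoxia, 4052 of 38452 probes had an unadjusted p under 0.05. At an unadjusted p under 0.05, Hbb-bh1 was the only member to pass, in P5 normoxia, where 6266 of 35981 probes passed as well, and in P14 hyperoxia, where 6414 of 38452 did, so 1 of 6 members is close to the share of all probes. Its log2 difference was 0.52 in P5 normoxia (95% interval 0.19 to 0.86, limma adjusted p = 0.151) and 0.76 in P14 hyperoxia (0.17 to 1.36, limma adjusted p = 0.173). In P14 normoxia the Hbb-bh1 difference was 0.46 with no overlap between treatments (limma adjusted p = 0.554), and in P5 hyperoxia it was 0.04 (0.931).

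The remaining members differed between the antimiRs by -0.16 to 0.69, the widest 95% intervals reaching from -1.31 to 2.09, so differences of that size are not excluded by these 4 mice per group. For Hbb-b1 the differences were -0.16 in P5 normoxia, 0.18 in P5 hyperoxia, 0.19 in P14 normoxia and 0.69 in P14 hyperoxia. The Ahsp difference in P14 hyperoxia was -0.03. The dependence of the antimiR effect on oxygen was called for 0 of 6 members at either age by limma, against 0.0556% of probes at P5 and 0.0884% at P14. Of the members, Hbb-bh1 at P5 had an unadjusted p under 0.05 for it (-0.48, limma adjusted p = 0.453), as had 3909 of 35981 probes.

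The mice of a group differed among themselves, and 4 of the members did so together. After the mean of each group was taken out, Hbb-b1 correlated across the 32 arrays with Hba-a1 at r = 0.98, with Alas2 at 0.99 and with Slc4a1 at 0.92. The 6 pairs among these 4 genes had r between 0.92 and 0.99. Ahsp followed them less closely, with r between 0.69 (Alas2) and 0.84 (Slc4a1) and 0.72 with Hbb-b1. Hbb-bh1 had r = 0.00 with Hbb-b1 and between -0.01 and 0.28 with the adult set of 5. Without the fourth P14 hyperoxia mouse given antimiR-34a, Hbb-b1 had r = 0.97 with Hba-a1, 0.98 with Alas2, 0.72 with Ahsp and 0.32 with Hbb-bh1 over 31 arrays. Points of one array share its labelling and its scaling, so these r values describe the arrays.

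**Figure D3:**
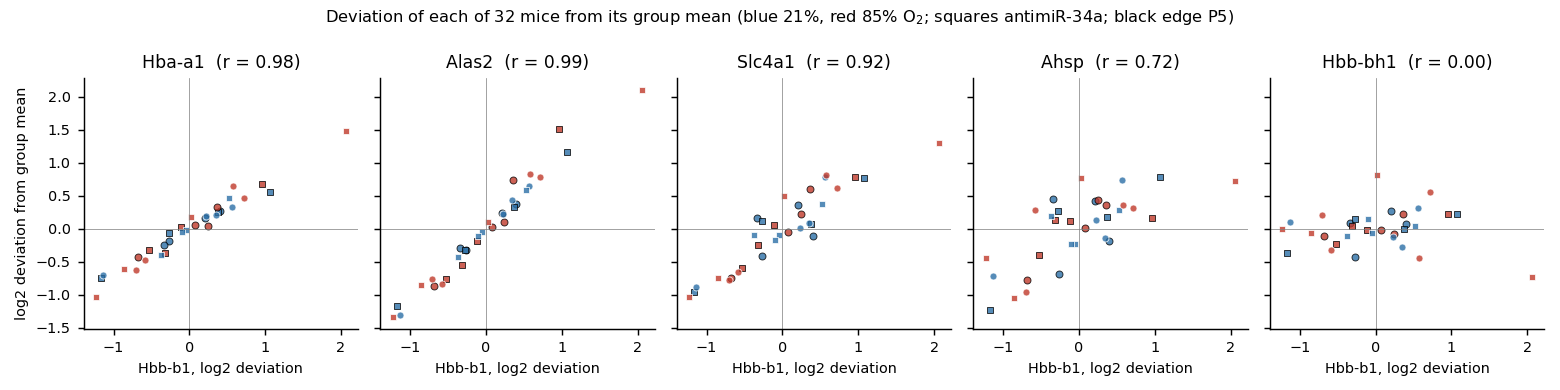
Deviation of each of 32 mice from its group mean for Hbb-b1 (x axis, log2) against that of 5 other members (y axis, log2), blue for 21% O2, red for 85% O2, squares for antimiR-34a and black edges for P5. Hba-a1 and Alas2 lie along a line (r = 0.98 and 0.99), Ahsp scatters more (r = 0.72) and Hbb-bh1 shows no slope (r = 0.00).

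The mean of the 6 tested members after group means were taken out was set against 34102 other probes. The 10 probes with the highest r over the 32 arrays had values of 0.95 to 0.98. Among them were Rsad2 (viperin, an antiviral protein, 0.97), Hbb-b2 (a beta-globin name, 0.97), Zdhhc22 (a palmitoyltransferase family member, 0.97), Hbq1b (theta globin, 0.96), a transcript without gene symbol (0.95), Tspo2 (an erythroid translocator protein, 0.95), Otop1 (a proton channel, 0.95) and Slc6a20a (an amino acid transporter, 0.95). With the group means left in, 6 of the 10 were again among the 10 most alike. The same mean had r of 0.19 with platelet genes, 0.30 with neutrophil genes, -0.34 with lung epithelial genes and -0.19 with the 75th percentile of the array. The part of these measures in the results was not tested.

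Because the members shared a large part of their variation between mice, the ratio of each member to Hbb-b1 within the same array was compared, a choice made after seeing the data. The height of such a ratio depends on both probes, and only its difference between groups was read. In these 40 exact two-sided permutation tests of 4 against 4 mice the smallest possible p is 0.0286, and 0 tests passed 0.05 after Benjamini-Hochberg adjustment over the 40 (lowest adjusted p 0.0672). Relative to Hbb-b1, Ahsp was lower at P14 without overlap in all 4 age comparisons, by 5.20-fold and 8.65-fold in normoxia (scrambled antimiR and antimiR-34a) and by 2.32-fold and 3.34-fold in hyperoxia. Each had an exact permutation p of 0.0286.

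The oxygen difference of Ahsp relative to Hbb-b1 was -0.77 with scrambled antimiR and -1.43 with antimiR-34a at P5 (log2), both without overlap. At P14 it was 0.39 and -0.05 with overlap (exact permutation p = 0.371 and 0.943). Relative to Hbb-b1, Slc4a1 was lower in hyperoxia at P5 (-0.35 with overlap and -0.79 without) and higher in hyperoxia at P14 (0.97 without overlap and 1.01 with overlap, scrambled antimiR first). Alas2 relative to Hbb-b1 was higher in P14 hyperoxia without overlap, by 0.42 and 0.45. Hba-a1 relative to Hbb-b1 was higher at P14 than at P5 by 0.81, 1.05 and 0.70 without overlap and by 0.67 with overlap (hyperoxia with antimiR-34a). Over the same ages the level of the brightest probe of an array, a bound on that of Hba-a1, had medians of 8.68 and 8.50 on the P5 slides and 9.41 and 9.34 on the P14 slides (21% and 85% O2), and its part in this difference was not tested. With age, Slc4a1 relative to Hbb-b1 was lower at P14 by 3.21-fold and 5.54-fold in normoxia (scrambled antimiR and antimiR-34a) and by 1.59-fold in hyperoxia with antimiR-34a, each without overlap, and by 1.28-fold with overlap in hyperoxia with scrambled antimiR (exact permutation p = 0.0571). The ratio of Hbb-bh1 overlapped in all 8 comparisons.

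**Figure D4:**
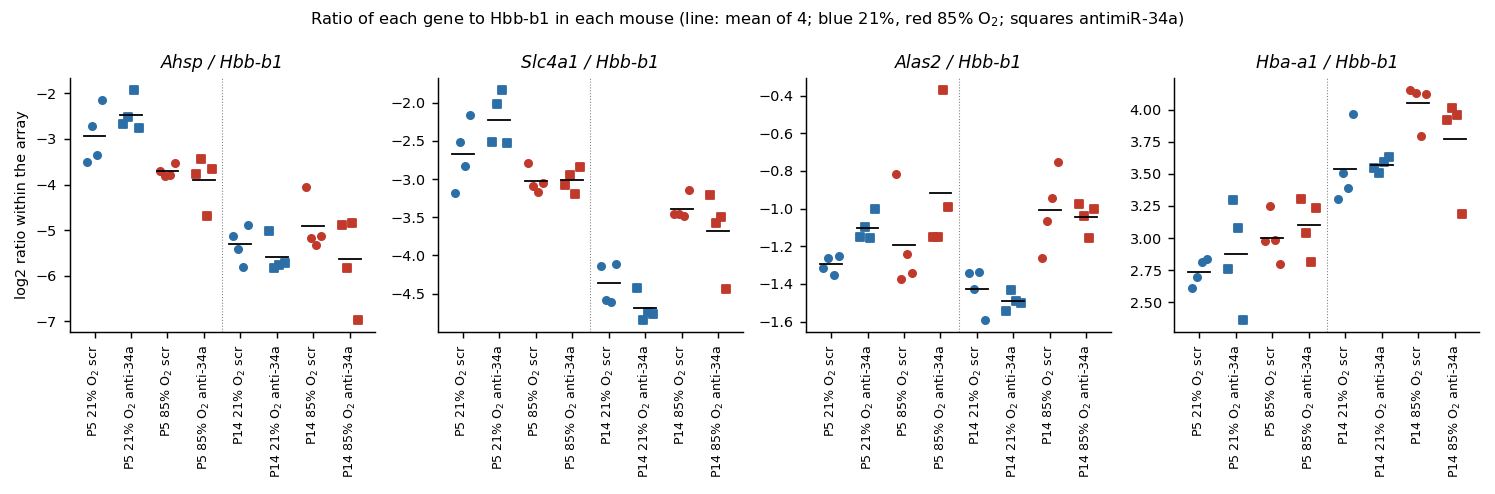
Log2 ratio of 4 members (Ahsp, Slc4a1, Alas2 and Hba-a1) to Hbb-b1 within each array (y axis) for the 4 mice of each group (x axis), with black lines for the mean, blue for 21% O2, red for 85% O2 and squares for antimiR-34a. Mean ratios of Ahsp fall from -2.93 and -2.47 in P5 normoxia to -5.31 and -5.58 in P14 normoxia, and those of Slc4a1 rise from -4.36 in P14 normoxia to -3.39 in P14 hyperoxia with scrambled antimiR.

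Related globin probes were read beside the members, and the near-identical sequences of these genes limit what a probe name can tell. Of 6 other globin genes tested, 1 fell and 0 rose in each oxygen comparison, and with age 1 (the Hba-a2 probe, described below as near the top of the scale) was called higher in each comparison and 0, 0, 1 and 0 fell (normoxia scrambled, hyperoxia scrambled, normoxia antimiR-34a and hyperoxia antimiR-34a). After normexp background correction, after quantile normalization and in the authors' table, 0 to 2 fell and 0 rose in hyperoxia. The list's medians for oxygen then lay on either side of 0 (-0.55 to 0.06). With age 0 to 1 fell and 0 to 1 rose under these processings. Hbb-b2, a beta-globin name whose deviations followed those of Hbb-b1 at r = 1.00, was 3.65-fold lower in P14 hyperoxia with scrambled antimiR (log2 fold change -1.87, limma adjusted p = 0.0132, no overlap) and at -1.40 with antimiR-34a (limma adjusted p = 0.0480). Hbb-bt, which followed Hbb-b1 at r = 0.96, was called in no oxygen comparison. At P14 with scrambled antimiR its mean was 6.98 ± 0.82 (SD, n = 3) in hyperoxia and 7.90 ± 0.59 (n = 4) in normoxia. On at least 1 array the Hbb-bt probe lay within 1 log2 unit of the brightest probe. The Hba-a2 probe, which lies 413 bases from the Hba-a1 probe, was 0.09 to 0.72 log2 units below the brightest probe of its array on all 32 arrays and varied little within groups (SD 0.25, against 0.80 for Hbb-b1), so its differences are not read as expression. Hba-a1 and Hba-a2 share a run of 297 of 300 bases in their promoter entries. Hbb-y, an embryonic beta-like globin, was lower in P5 hyperoxia with scrambled antimiR (-0.57, limma adjusted p = 0.0427) and antimiR-34a (-0.94, 0.00240), and did not pass at P14.

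Other genes of the red cell and its surroundings were counted over lists. Over all tested probes 17.5%, 17.2%, 28.4% and 27.8% were called higher in hyperoxia (P5 scrambled, P5 antimiR-34a, P14 scrambled and P14 antimiR-34a) and 27.8%, 26%, 29.8% and 19.5% were called higher with age (normoxia scrambled, hyperoxia scrambled, normoxia antimiR-34a and hyperoxia antimiR-34a), beside the shares called lower given above, and list counts below follow the same order. Each list was also fitted after normexp background correction, after quantile normalization and in the authors' table. More genes of the red cell membrane and its skeleton fell than rose in hyperoxia, except that 4 fell and 4 rose at P14 with antimiR-34a after quantile normalization and in the authors' table. Of 18 such genes at P5, 10 fell and 2 rose in hyperoxia with scrambled antimiR, and 13 fell and 2 rose with antimiR-34a. At P14, 11 of 17 fell and 2 rose with scrambled antimiR, and 9 fell and 2 rose with antimiR-34a. The list's median log2 fold changes in these 4 comparisons were -0.76, -0.89, -0.93 and -0.75, against -0.07, -0.09, -0.06 and -0.11 over all probes. Over the 3 other processings the list's medians for oxygen ran from -0.79 to -0.23, all below 0, and after normexp 5 and 3 of 17 fell at P14 (scrambled antimiR and antimiR-34a). At P5 with scrambled antimiR, Ank1 (ankyrin, which ties band 3 to spectrin) was at -1.52 (limma adjusted p = 0.00532), Kel (the Kell blood group protein) at -1.32 (0.00302) and Rhd (a Rh blood group protein) at -1.30 (0.0106). At P14 with scrambled antimiR, Sptb (red cell beta spectrin) was 4.07-fold lower (limma adjusted p = 0.000708) and Epb42 (protein 4.2) 3.51-fold lower (0.0136).

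From P5 to P14, 8, 10, 12 and 8 of the 18 membrane genes fell and 2, 1, 3 and 1 rose (normoxia scrambled, hyperoxia scrambled, normoxia antimiR-34a and hyperoxia antimiR-34a), and after normexp 4 and 3 fell in hyperoxia (scrambled antimiR and antimiR-34a), with the list's median below 0 throughout. Kel was 4.49-fold lower (limma adjusted p = 3.28e-05) and Rhd 4.06-fold lower (0.000224) in normoxia with scrambled antimiR. Trim10, an erythroid RING finger protein, was 4.1-fold lower in the same comparison (limma adjusted p = 0.000310). Of the 8 tested late red cell enzymes and factors, to which Trim10 belongs, 3, 2, 4 and 3 fell and 1, 2, 1 and 1 rose with age. In hyperoxia 4, 4, 2 and 2 of the same 8 fell and 1, 1, 2 and 2 rose (P5 scrambled, P5 antimiR-34a, P14 scrambled and P14 antimiR-34a), Car1 (carbonic anhydrase 1) being at -1.16 at P5 with scrambled antimiR (limma adjusted p = 1.45e-05).

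Of the 10 genes of heme synthesis and mitochondrial iron import, 1 fell in hyperoxia in each of the 4 comparisons while 2, 3, 4 and 5 rose, and over the other processings 1 to 3 fell and 2 to 5 rose, with a median on either side of 0 (-0.08 to 0.20). Cpox (coproporphyrinogen oxidase) rose in hyperoxia by 0.30 at P5 (limma adjusted p = 0.00160) and by 0.53 at P14 (0.000325) with scrambled antimiR. With age 3, 1, 4 and 1 of the 10 fell, in the order of comparisons used for age above, and 0, 1, 0 and 1 rose. Slc25a37 (mitoferrin, which carries iron into mitochondria) was 2.28-fold lower at P14 in normoxia with scrambled antimiR (limma adjusted p = 0.00406). Most enzymes of this pathway are also made by other lung cells.

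The medians of the next 2 lists and of the late red cell enzymes lay on either side of 0 for oxygen depending on the processing, so these lists are given by counts alone. Among 9 erythroid transcription factors 2, 1, 4 and 4 fell and 2, 2, 2 and 3 rose in hyperoxia, and 4, 5, 5 and 6 fell and 1, 0, 2 and 0 rose with age. Gata1, the erythroid and megakaryocyte GATA factor, was lower at P14 than at P5 by a log2 difference of -0.82 in normoxia with scrambled antimiR (limma adjusted p = 0.000276). The age difference of Gata1 within 85% O2 was -1.11 with scrambled antimiR (limma adjusted p = 9.38e-06) and -1.66 with antimiR-34a (3.66e-08). Bcl11a, which silences embryonic globin genes, was at -1.67 in P14 hyperoxia with scrambled antimiR (limma adjusted p = 6.02e-08). Among genes of erythropoietin signalling and iron supply, 3 of 9, 4 of 9, 3 of 8 and 2 of 8 fell and 2, 0, 1 and 1 rose in hyperoxia. With age 1, 2, 2 and 1 of 9 fell and 5, 5, 4 and 4 rose. Erfe (erythroferrone, a hormone of erythroblasts) was 2.55-fold lower at P14 in normoxia with scrambled antimiR (limma adjusted p = 0.000184).

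Of 9 tested genes that handle free heme and hemoglobin, 6, 7, 7 and 7 rose in hyperoxia and 0 fell, and over the other processings 6 to 8 rose and 0 fell. Hmox1 (heme oxygenase 1, which breaks heme down) rose 2.53-fold at P5 and 8.72-fold at P14 with scrambled antimiR (limma adjusted p = 0.00135 and 0.000704), and 5.08-fold and 5.16-fold with antimiR-34a (1.17e-05 and 0.00437). At P14 with scrambled antimiR, Hpx (hemopexin, which binds heme) rose 3.74-fold (limma adjusted p = 1.84e-07) and Hp (haptoglobin, which binds hemoglobin) 3.39-fold (1.76e-07). With age 3, 6, 3 and 5 of the 9 rose and 1, 1, 0 and 0 fell.

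Markers of other cells also moved. Of 7 tested proliferation genes 7, 7, 2 and 3 fell in hyperoxia and 7 fell in each age comparison, with 0 rising, and the list's median was below 0 in each comparison under the other processings as well. Of 8 platelet and megakaryocyte genes 1, 1, 2 and 1 fell and 1, 2, 2 and 2 rose in hyperoxia, and 6, 5, 5 and 4 fell and 1, 1, 1 and 2 rose with age. Of 8 neutrophil genes 2, 1, 0 and 1 fell and 0, 0, 2 and 1 rose in hyperoxia, and 2, 1, 4 and 3 fell and 0, 1, 0 and 1 rose with age. Over the other processings 0 to 2 neutrophil genes fell and 0 to 4 rose in hyperoxia, and 0 to 4 fell and 0 to 1 rose with age, with medians on either side of 0 for both. Skeletal muscle genes fell in 4, 1, 5 and 3 of 8 cases in hyperoxia, with 0 rising, and 0 fell and 1, 0, 1 and 0 rose with age. Endothelial genes rose in 2, 2, 4 and 4 of 8 cases and fell in 2, 2, 2 and 2 in hyperoxia, and with age 6, 5, 4 and 4 rose and 0, 1, 1 and 2 fell. Lung epithelial genes rose in 4 of 8 cases and fell in 1 in each oxygen comparison, and with age 5, 5, 4 and 4 rose and 1, 0, 2 and 0 fell. Over the other processings 3 to 4 epithelial genes rose and 1 fell in hyperoxia, and with age 0 to 5 rose and 0 to 3 fell. The endothelial counts over the other processings were 2 to 4 rising and 2 to 4 falling in hyperoxia and 3 to 7 rising and 0 to 2 falling with age, and those of platelet genes were 1 to 4 rising and 0 to 1 falling in hyperoxia and 1 to 2 rising and 4 to 6 falling with age. For skeletal muscle genes they were 0 rising and 0 to 5 falling in hyperoxia and 0 to 1 rising and 0 falling with age. In hyperoxia the platelet and endothelial medians changed sign under some of them. Proliferation and platelet genes thus fell beside Ahsp and Slc4a1 with age, and their part in those results was not tested. The mean platelet level (log2 relative to the mean of all arrays) ran from -0.24 to 0.65 over the P5 mice and from -0.54 to -0.01 over the P14 mice.

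**Figure D5:**
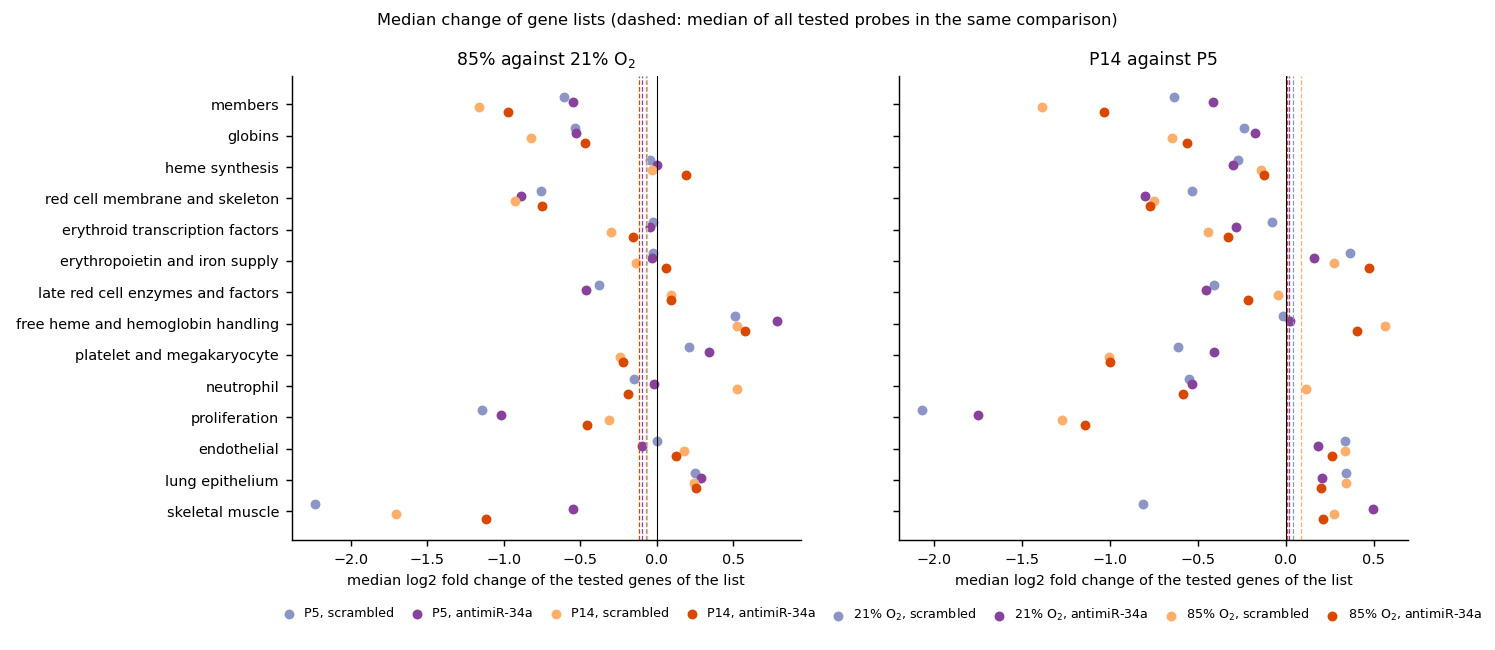
Median log2 fold change (x axis) of the tested genes of each list (y axis) in the 4 oxygen comparisons (left) and the 4 age comparisons (right), with dashed lines for the median of all tested probes. In hyperoxia red cell membrane genes lie at -0.93 to -0.75 and free heme handling genes at 0.51 to 0.79, and with age proliferation genes lie at -2.07 to -1.14.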

How the data were processed

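RNA of whole lungs was hybridised to one-colour Agilent arrays, 1 mouse per array. Per the file headers, the deposited scanner files hold an intensity per spot, measured by Agilent Feature Extraction 10.7.3.1 and already background-subtracted in the processed column, and the authors' table holds log2 values whose normalization is not given in the sources used here (r with the scanner values 0.997 to 1 per array). For each array, the log2 processed intensity minus its 75th percentile over 59305 mouse-probe spots was used. Outlier spots (0.211%) were left out and spots of a probe averaged. A probe was tested if all 4 arrays of at least 1 fitted group had it well above background (35981 at P5, 38452 at P14, 39159 over both ages).

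Groups came from the labels. limma 3.58.1 (R 4.3.3, with the data.table package, version 1.17.8; figures with Python 3.11.15 and matplotlib 3.10.9) was fitted with one mean per group to the 16 arrays of an age, or to all 32 for differences between ages, adjusted by Benjamini-Hochberg across every tested probe with a threshold of 0.05, after being tested on simulated data. The fit holds no slide term, because slide and group are aliased. Precision is limited by 4 mice per group and by each member having 1 probe. Replicate numbers did not pair mice (median r of same-numbered deviations 0.00859 at P5 and 0.0406 at P14).

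Members, gene lists and tests were chosen with earlier results of these data known. All members were named. From each of 13 other lists up to 3 genes per comparison could be named, the called genes with non-overlapping groups and the largest change and a selection of these is printed. Hbb-b2, Hbb-bt, Hba-a2 and Hbb-y are also given where that rule did not name them, which was decided after their values were seen. The 10 most-alike genes are those with the highest r. Some genes that these rules name are not reported here. Alternatives were other background corrections, normalizations, filters, array weights, fits, the methods' t-test and leaving out each array. Their use on the gene lists was added after seeing the data. Protein, RT-PCR and microRNA array data were not analysed here.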

Additional observations from a re-analysis of the deposited data

Results flagged for a closer look

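Among 56 sets of 4 mice (7 genes in 8 groups), 4 held 1 mouse far from the other 3, where chance gives about 1 in 20. Hba-a1 was at 7.78 in P14 normoxia with scrambled antimiR replicate 4, against 8.67 to 8.81 in the other 3. Slc4a1 was at 0.82 in P14 normoxia with antimiR-34a replicate 2, against 0.27 to 0.35. Ahsp was at 0.73 in P5 hyperoxia with antimiR-34a replicate 1, against 1.26 to 1.30, and at -2.50 in P14 hyperoxia with scrambled antimiR replicate 2, against -1.26 to -1.18. The first of these mice was also the lowest of its group for Hbb-b1, Alas2, Slc4a1 and Ahsp, and its array had the lowest 75th percentile of its group.

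The oxygen effect on Hbb-bh1 with scrambled antimiR differed between P14 and P5 by -1.40 on the log2 scale in the tested interaction. The effect was -0.29 at P5 and -1.69 at P14. After normexp background correction the difference between ages was smaller and not called, and the P14 call was lost, as given above.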

How the results depend on the processing

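The counts of members called (of 6) are given as they changed by over 1.5 times. Oxygen at P5 with scrambled antimiR had 2, and 1 (Ahsp) with no filter on dim probes, by the methods' t-test and without 3 or 4 arrays that stand apart, the last chosen after seeing the data. Oxygen at P5 with antimiR-34a had 3, and 1 (Hbb-bh1) by the t-test. Oxygen at P14 with scrambled antimiR had 3, 6 with array weights and 1 (Hbb-bh1) by the t-test. Oxygen at P14 with antimiR-34a had 2, and 1 (Hbb-bh1) after quantile normalization, in the authors' table, by the t-test and without the 3 or 4 arrays, and 1 (Ahsp) with only probes above background on every array. Age in hyperoxia with scrambled antimiR had 4, and 2 by the t-test. With antimiR-34a it had 2, 1 when only the compared groups were fitted and 0 by the t-test. The oxygen by age difference with scrambled antimiR had 1, and 0 after normexp and with probes above background on every array, where Hbb-bh1 left the test. With antimiR-34a it had 0, and 1 (Klf1) with no filter.

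Leaving out each array in turn gave 1 to 3, 2 to 3, 1 to 4 and 1 to 5 members for oxygen (P5 scrambled, P5 antimiR-34a, P14 scrambled, P14 antimiR-34a), 2 to 3, 3 to 4, 2 to 2 and 2 to 4 for age (normoxia scrambled, hyperoxia scrambled, normoxia antimiR-34a, hyperoxia antimiR-34a), 1 to 1 and 0 to 1 for oxygen by age, and 0 to 0 for the antimiR comparisons. The 1 under oxygen by age with antimiR-34a came without P14 hyperoxia antimiR-34a replicate 1 (Hbb-bh1) or 4 (Hba-a1). Log2 fold changes that changed sign were all uncalled. Hbb-bh1 had -0.14 for antimiR by oxygen at P14 after normexp. After quantile normalization and in the authors' table, Hba-a1 had 0.0364 and 0.0368 for oxygen with antimiR-34a at P5 and -0.30 for age in normoxia with scrambled antimiR, and Hbb-bh1 had -0.0575 in both for antimiR in P5 hyperoxia (-0.035 without the 4 arrays) and -0.0019 and -0.0032 for age in normoxia with antimiR-34a. With arrays left out, oxygen with antimiR-34a at P5 ran from -0.71 to 0.0359 for Hbb-b1, -0.34 to 0.0922 for Hba-a1 and -0.64 to 0.25 for Alas2, age in normoxia with antimiR-34a from -0.61 to 0.14 for Hbb-b1, antimiR in P5 hyperoxia from -0.035 to 0.12 for Hbb-bh1, age in hyperoxia with antimiR-34a from -0.79 to 0.05 for Hba-a1, and oxygen with antimiR-34a at P14 from -0.49 to 0.29 for Slc4a1. The causes were not tested.

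With the replicate block, oxygen at P14 with scrambled antimiR had 2 members, losing Hbb-b1, and no other count changed. Normexp moved the median of all probes by 0.17 for that comparison and lowered the share of its calls that were lower from 53.3% to 37.2%, and quantile normalization moved it from 60.1% to 47.2% at P5 with scrambled antimiR and from 57.6% to 44.0% at P14 with antimiR-34a. A slide block could not be fitted, and other probes of a member gave no value, as each has 1. Dim probes (Hbb-bh1, Klf1) and 4 mice per group limit what could be detected.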
